A study of Mus musculus with 16 samples.

Results

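The genes described here mark the principal neurons of the cerebellar cortex. They were 10 genes chosen by name, 4 for Purkinje cells (Pcp2, Car8, Calb1 and Ppp1r17) and 6 for granule cells (Cbln1, Cbln3, Zic1, Zic2, En2 and Neurod1), out of 55404 genes in the table. RNA of the whole brain had been sequenced for 16 mice with 1 library each, 8 in the Tecpr2 ki/ki group and 8 in the wt/wt group, and the values of these genes were read there. Tecpr2 ki/ki mice were homozygous for the frameshift L1152fs, which the study's text writes L1152Yfs and which was placed in Tecpr2 by gene editing in zygotes, so that every cell type carried it, and wt/wt controls had the unedited gene. All mice were 5 months old, untreated males on a C57BL/6 J background.

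Purkinje cells are large inhibitory neurons and the only output of the cerebellar cortex. Granule cells are small glutamatergic neurons, the most numerous neurons of the brain, and their parallel fibres drive Purkinje cells across synapses that hold cerebellin. In a whole brain homogenate the cerebellum is a main source of RNA of these genes, though several of them are also made elsewhere in the brain, as given with each gene. Their values therefore vary with the cells of this region and with how much of it a sample held. Fewer cells of a type and less RNA per cell cannot be told apart in such samples.

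None of the 10 genes differed between Tecpr2 ki/ki and wt/wt brains after adjustment over all genes. Across brains, however, the genes of both cell types rose and fell together, and the variance of most of them between mice was several times what counting reads would give. Pcp2 alone had an unadjusted p under 0.05.

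Sequences upstream of 4 of the 10 genes were available from RefSeq for GRCm38.p6, and they are shown because these genes varied together between brains. GRCm38 is an older build than the GRCm39 to which the authors aligned. Capitals mark 2 motifs searched on both strands, which do not overlap in these stretches: AGGTCA, the half-site bound by ROR nuclear receptors, among them RORα that Purkinje cells need for their maturation, and CANNTG, the E-box read by basic helix-loop-helix factors such as Neurod1. Only bases outside annotated exons are printed for Cbln3 (chr14:55884393-55884506), Zic1 (chr9:91365811-91366018) and Neurod1 (chr2:79456786-79456886), all on the minus strand. For Pcp2, whose upstream bases lie in an exon of Pet100 on the opposite strand, 30 bases are printed (chr8:3625554-3625583, minus strand), which end with a half-site 6 bases before the start of the most upstream of 4 listed transcripts.
Pcp2: cctagccttttaaaaggccttctcAGGTCA
Cbln3: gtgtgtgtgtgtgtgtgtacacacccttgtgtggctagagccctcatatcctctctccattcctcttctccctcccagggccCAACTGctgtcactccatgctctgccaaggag
Zic1: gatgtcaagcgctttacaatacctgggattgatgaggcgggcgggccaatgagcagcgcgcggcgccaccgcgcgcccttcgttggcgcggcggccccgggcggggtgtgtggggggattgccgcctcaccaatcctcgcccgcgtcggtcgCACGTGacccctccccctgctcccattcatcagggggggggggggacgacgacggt
Neurod1: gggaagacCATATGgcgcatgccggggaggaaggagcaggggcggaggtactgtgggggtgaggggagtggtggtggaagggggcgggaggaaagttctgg
Of 32851 promoters in the same table, 14% held AGGTCA within the 250 bases before the start. CANNTG was held by 40.2%, 60.3% and 36.5% of all promoters in stretches as long as those of Cbln3, Zic1 and Neurod1, which have 1 E-box each. The other 6 genes, Car8, Calb1, Ppp1r17, Cbln1, Zic2 and En2, were not matched.

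The authors deposited normalized values rounded to whole numbers, and these are the values given below, with the mean ± SD over the 8 mice of a genotype. A mouse's values added up to 11964284 at the least and 12252324 at the most. Behind them stood 9.23 to 15.39 megareads counted on genes, an estimate from the rounding of low values. The edited gene checked the labels, with Tecpr2 values of 274 to 320 in Tecpr2 ki/ki mice and of 928 to 1002 in wt/wt mice. Genes were compared with limma on log2(value + 1), Benjamini-Hochberg adjusted over all 23244 genes that passed a filter on low values. All 10 cerebellar genes passed it. At an adjusted p under 0.1, 0 of the 10 were called, where 31 genes or 0.133% of all tested genes were. At an unadjusted p under 0.05, 1 of the 10 was counted, where 6.08% of all tested genes were. The values of the genotypes were free of overlap in 0 of the 10, and in 0.086% of all tested genes. The median log2 difference, Tecpr2 ki/ki minus wt/wt, was 0.01 over the 10 genes, beside -0.00 over all tested genes.

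The Purkinje cell genes were taken first. Pcp2 encodes Purkinje cell protein 2, a modulator of G protein signalling found almost only in Purkinje cells and retinal bipolar cells. Its values in Tecpr2 ki/ki mice 1 to 8 were 97, 75, 93, 74, 91, 80, 84 and 70 (83.0 ± 9.89, n = 8). In wt/wt mice 1 to 8 they were 70, 86, 74, 76, 46, 45, 80 and 85 (70.2 ± 16.2, n = 8). The values of 3 Tecpr2 ki/ki mice exceeded all wt/wt values, and the wt/wt mean was drawn down by mice 5 and 6, whose values were far under those of all other mice.

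The log2 difference of Pcp2 was 0.27 ± 0.11 (SE), or 1.203-fold with a 95% interval from 1.03 to 1.41. In limma's test its p was 0.0244 before and 0.762 after adjustment over all genes, and an exact two-sided permutation test over 12870 splits of the mice gave p = 0.0892. Without wt/wt mouse 5 the log2 difference was 0.19 (limma, unadjusted p = 0.0803, adjusted p = 0.874), and without wt/wt mouse 6 it was 0.18 (limma, unadjusted p = 0.0843, adjusted p = 0.919). Between 49.3 and 109.9 reads stood behind its values, the fewest of the 10 genes. Of the exon bases of Pcp2, 51.5% overlap those of Pet100, a gene of the opposite strand for an assembly factor of cytochrome c oxidase. How the counting treated strand is not given in the sources used here. Pet100 had values of 89.5 ± 15.4 in Tecpr2 ki/ki and 82.0 ± 5.55 in wt/wt mice (n = 8 each), a log2 difference of 0.11 ± 0.09 (SE, limma adjusted p = 0.914). Across mice the r of Pcp2 with Pet100 was -0.23 (rho -0.49, n = 16, genotype means removed), and the part of Pet100 reads in the Pcp2 values was not tested.

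Car8 encodes a carbonic anhydrase-related protein without catalytic activity, which binds the inositol trisphosphate receptor Itpr1 and whose loss causes ataxia in mice. In Tecpr2 ki/ki mice 1 to 8 its values were 2265, 1880, 2178, 2153, 2119, 2195, 2089 and 2199 (2135 ± 116, n = 8). In wt/wt mice 1 to 8 they were 2324, 2283, 2432, 2096, 1861, 1985, 2037 and 2366 (2173 ± 206, n = 8). The genotypes overlapped fully, Tecpr2 ki/ki mice lying inside the wt/wt range, with a fold of 0.985 (95% interval 0.906 to 1.071, limma adjusted p = 0.981).

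Calb1 encodes the calcium buffer calbindin, abundant in Purkinje cells but also made by neurons of striatum, cortex, hippocampus and thalamus. Its values ran from 1728 to 1938 (median 1846) in Tecpr2 ki/ki mice and from 1732 to 2006 (median 1837) in wt/wt mice. It had the narrowest interval of the 10 genes, with a fold of 0.995 (95% interval 0.960 to 1.03, limma adjusted p = 0.986).

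Ppp1r17 encodes G-substrate, a protein phosphatase inhibitor phosphorylated by cGMP-dependent protein kinase in Purkinje cells. Its values were 249, 206, 250, 203, 236, 224, 224 and 250 in Tecpr2 ki/ki mice 1 to 8 (230.2 ± 19.2, n = 8). They were 233, 251, 224, 215, 178, 204, 215 and 239 in wt/wt mice 1 to 8 (219.9 ± 22.6, n = 8). The lowest value again belonged to wt/wt mouse 5, and the fold of 1.05 (95% interval 0.966 to 1.14) had an adjusted p of 0.917 in limma's test.

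**Figure D1:**
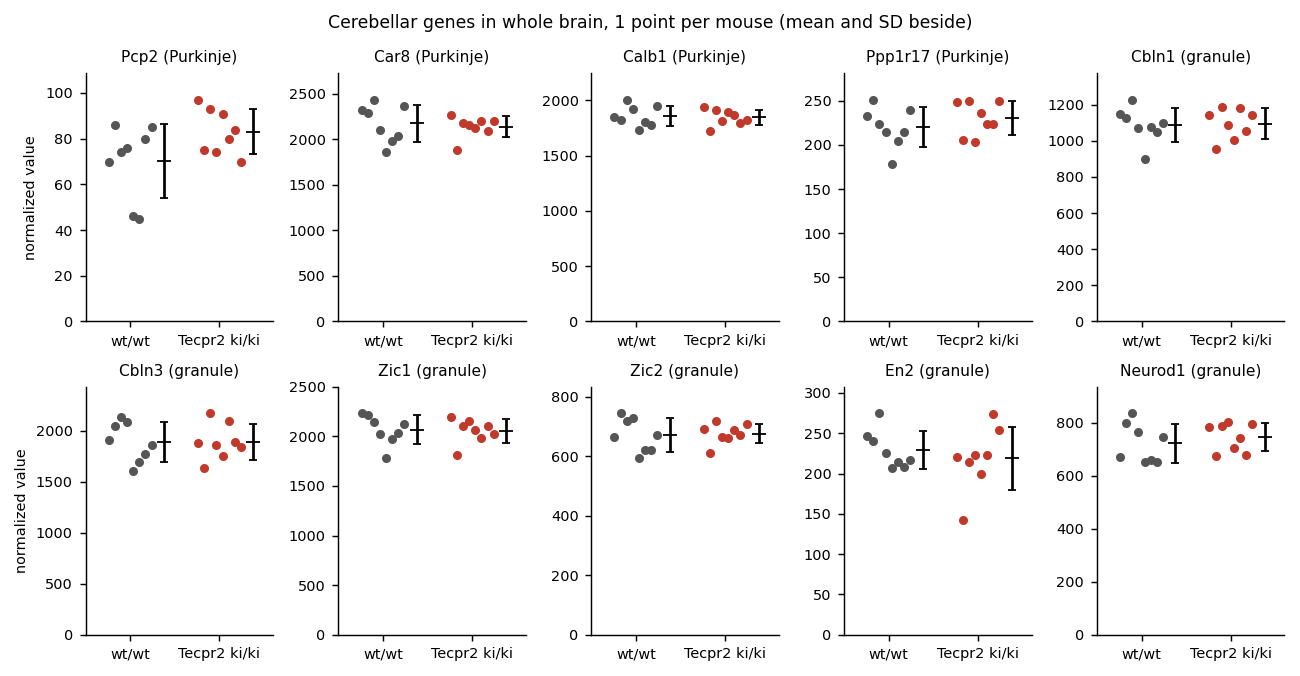
Normalized values of the 10 cerebellar genes (y axis, from 0, without unit) in 8 wt/wt mice (grey) and 8 Tecpr2 ki/ki mice (red), mice 1 to 8 from left to right, with the mean and SD of each genotype as a black bar. The genotypes overlap in every panel, and wt/wt mouse 5 and Tecpr2 ki/ki mouse 2 sit low in most of them.

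Of the granule cell genes, Cbln1 and Cbln3 encode cerebellins, secreted proteins that granule cells release at parallel fibre synapses, where Cbln1 bridges the synaptic cleft and Cbln3 is secreted together with Cbln1. Cbln1 ran from 954 to 1186 (median 1114.5) in Tecpr2 ki/ki mice and from 900 to 1227 (median 1087.5) in wt/wt mice, with a fold of 1.01 (95% interval 0.921 to 1.10, limma adjusted p = 0.991). Cbln3, which is largely restricted to granule cells of the cerebellum and the dorsal cochlear nucleus, had values of 1883, 1636, 2174, 1862, 1750, 2092, 1887 and 1840 in Tecpr2 ki/ki mice 1 to 8 (1890 ± 173, n = 8). In wt/wt mice 1 to 8 it had values of 1913, 2049, 2133, 2089, 1603, 1697, 1769 and 1866 (1890 ± 192, n = 8). The means were nearly the same, while the values of single mice differed by up to 1.36-fold, and the fold between genotypes was 1.00 (95% interval 0.903 to 1.11, limma adjusted p = 0.999).

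Zic1 and Zic2 encode zinc finger transcription factors of granule cells and their precursors, which are also present in meninges and parts of the forebrain. Zic1 ran from 1812 to 2196 (median 2084.5) in Tecpr2 ki/ki mice and from 1782 to 2234 (median 2082.5) in wt/wt mice. Zic2 ran from 612 to 719 (median 679.5) in Tecpr2 ki/ki mice and from 593 to 745 (median 668.5) in wt/wt mice. Their folds were 0.995 (95% interval 0.927 to 1.068, limma adjusted p = 0.992) and 1.01 (95% interval 0.956 to 1.069, limma adjusted p = 0.980).

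En2 encodes a homeodomain factor that patterns the midbrain and cerebellum and stays on in granule cells. Its values were 221, 142, 214, 223, 200, 223, 274 and 254 in Tecpr2 ki/ki mice 1 to 8 (218.9 ± 38.9, n = 8). In wt/wt mice 1 to 8 they were 247, 241, 275, 225, 207, 214, 208 and 217 (229.2 ± 23.6, n = 8). Tecpr2 ki/ki mouse 2 had the lowest value by a wide step. The fold was 0.944 (95% interval 0.806 to 1.11, limma adjusted p = 0.957), and without that mouse the log2 difference went from -0.08 to 0.00.

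Neurod1 encodes a basic helix-loop-helix factor of differentiating and mature granule cells, also made in the dentate gyrus. It ran from 675 to 802 (median 764.5) in Tecpr2 ki/ki mice and from 652 to 837 (median 709) in wt/wt mice, with a fold of 1.04 (95% interval 0.948 to 1.13, limma adjusted p = 0.949). Of the 31-base words of its annotated transcripts, 6.56% also occur in transcripts of other genes, and at most 2.92% of those of any other of the 10 genes do.

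For the 8 genes other than Pcp2 and En2, the 95% intervals of limma lay between 0.903-fold and 1.14-fold, so that changes beyond these sizes were outside the intervals of these brains. Their exact permutation p-values lay between 0.340 and 0.977 (two-sided, 8 against 8 mice, not adjusted), the smallest that the design allows being 0.000155. For En2 the same exact permutation test gave p = 0.525. Signs were mixed within both classes, with 2 of 4 Purkinje cell genes and 4 of 6 granule cell genes above 0.

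**Figure D2:**
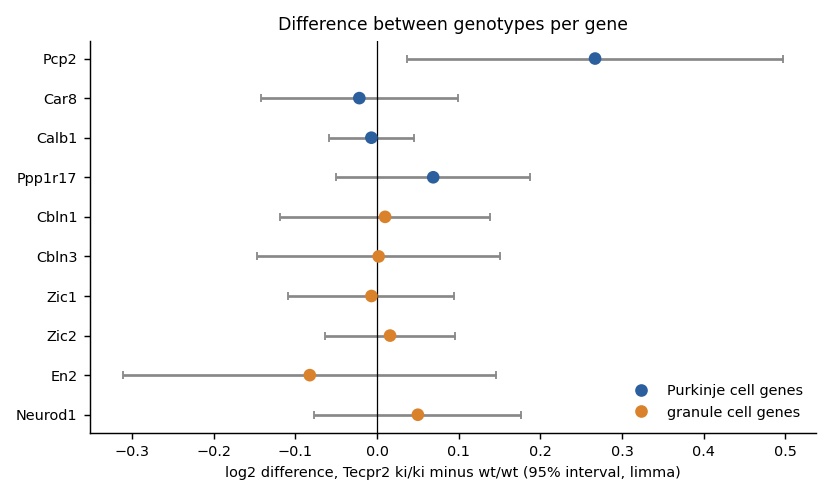
Log2 difference between genotypes, Tecpr2 ki/ki minus wt/wt, with its 95% interval from limma (x axis) for 4 Purkinje cell genes (blue) and 6 granule cell genes (orange). The intervals of 9 genes cross 0, and that of Pcp2 runs from 0.04 to 0.50.

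Levels were compared between the genes per kilobase of annotated exons. Car8 had the highest level, at 559 ± 42.2 (SD over all 16 mice), and no mouse's level overlapped with that of the next gene. Cbln3 (388.4 ± 36.3), Calb1 (382.4 ± 16.3), Zic1 (362.2 ± 22.8) and Cbln1 (359.1 ± 28.5) followed with overlapping ranges, and Cbln3 was above Calb1 in only 9 of 16 mice. Neurod1 came next with 269.3 ± 23.3 and Zic2 with 233.9 ± 15.6, in that order in 16 of 16 mice. Ppp1r17 followed with 128.1 ± 11.9, and En2 (63.3 ± 8.91) and Pcp2 (41.9 ± 7.95) had the lowest levels, in that order in 15 of 16 mice. The low place of Pcp2 stands beside the overlap of its exons with Pet100 given above. Together the 10 genes made up between 0.0794% and 0.0986% of a mouse's total.

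To set Purkinje cell genes against granule cell genes within a brain, a score was formed for each class as the mean log2(value + 1) of its genes. Since these are means over genes picked by name, they are given as values with no test. The Purkinje score was 9.04 ± 0.09 in Tecpr2 ki/ki and 8.96 ± 0.17 in wt/wt mice (SD, n = 8 each), a difference of 0.08, which was 0.03 without wt/wt mouse 5 and 0.05 without wt/wt mouse 6. The granule score was 9.78 ± 0.11 in Tecpr2 ki/ki and 9.78 ± 0.12 in wt/wt mice, a difference of -0.00. Within brains, the Purkinje score minus the granule score was -0.74 ± 0.09 in Tecpr2 ki/ki mice, ranging from -0.86 to -0.62, and -0.82 ± 0.10 in wt/wt mice, ranging from -0.95 to -0.67. The difference between these means was 0.08, under the SD within either genotype, which measures spread between mice and not the error of a mean. It came to 0.11 with only the genes taken here as mainly cerebellar (Pcp2, Car8 and Ppp1r17 against Cbln3, En2 and Neurod1). That subset was chosen by name and not measured, and Neurod1 is also made in the dentate gyrus. The difference came to 0.02 when Pcp2 was left out of the Purkinje score. It was -0.01 when the values of each class were summed before taking log2, which gives Car8 and Calb1 most of the weight. Measured against the mean of the other 3 Purkinje cell genes, Pcp2 was at -3.54 ± 0.14 (log2) in Tecpr2 ki/ki and at -3.79 ± 0.29 in wt/wt mice, a difference of 0.25.

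**Figure D3:**
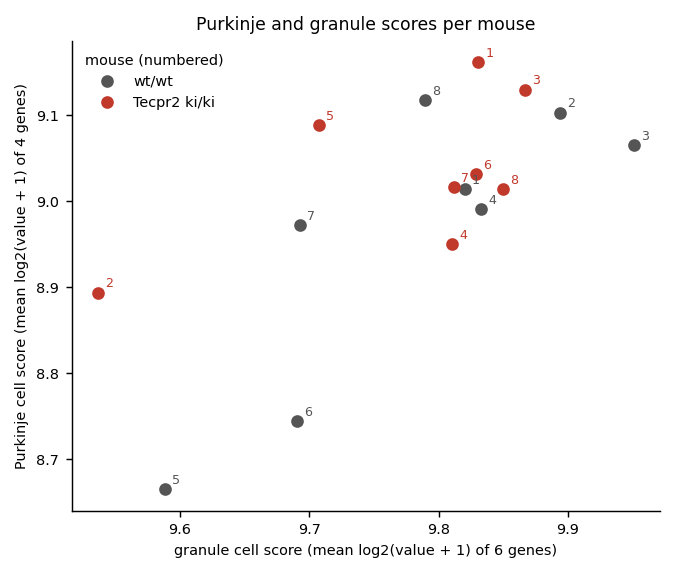
Purkinje cell score (y axis, mean log2(value + 1) of 4 genes) against granule cell score (x axis, mean log2(value + 1) of 6 genes), 1 numbered point per mouse, Tecpr2 ki/ki in red and wt/wt in grey. Tecpr2 ki/ki mouse 2 and wt/wt mice 5 and 6 are low on both axes, and both genotypes spread along the same diagonal.

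Within each genotype the genes differed between brains. In wt/wt mouse 5, 9 of the 10 genes had their lowest wt/wt value, and in Tecpr2 ki/ki mouse 2, 8 of 10 had their lowest Tecpr2 ki/ki value. All 10 were below their own mean over the 16 mice in these mice and in wt/wt mouse 6. At the other end, wt/wt mouse 3 held the highest wt/wt value of 6 genes. The mean over the 10 genes lay between 0.842 times its average, in wt/wt mouse 5, and 1.09 times, in wt/wt mouse 3, and was 0.878 times its average in Tecpr2 ki/ki mouse 2. From the lowest to the highest brain it spanned 1.30-fold.

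This spread was compared with counting noise, estimated from the reads behind each value. The variance between mice of the same genotype was 17.7 times the counting variance for Cbln3, 12.9 times for Car8, 8.71 times for Zic1 and 7.33 times for Cbln1. The medians for genes of a similar level (within 1.2-fold) were 1.98, 2.11, 2.08 and 1.57. The coefficient of variation was 9.68% for Cbln3, where counting alone gives 2.30%, and exceeded that of 99.7% of the genes at its level. Calb1, which other brain regions also make, had the smallest coefficient of variation at 4.42%, above that of 85.8% of genes at its level. For Pcp2 and Ppp1r17, with few reads, the variance was 2.33 and 1.94 times that of counting.

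Across the 16 mice, with the genotype means removed, all 45 pairs among the 10 genes had a positive Pearson r. The points share library and depth, so these values are descriptions without a test. The median r was 0.67 (median Spearman rho 0.62, n = 16), and it was 0.68 for the 6 pairs of Purkinje cell genes, 0.67 for the 15 pairs of granule cell genes and 0.68 for the 24 pairs across the classes. The median rho was 0.58 across the classes, 0.67 among Purkinje cell genes and 0.62 among granule cell genes. The highest r were 0.89 for Cbln3 with Zic2 and 0.86 for Car8 with Zic1, and the lowest was 0.17 for Pcp2 with En2. Within Tecpr2 ki/ki mice the median over pairs was 0.60 and within wt/wt mice 0.72 (n = 8 each). Leaving out, for each pair, the 2 mice farthest from the median of the first gene gave a median r of 0.53, with 0.48 across the classes, 0.56 among Purkinje cell genes and 0.61 among granule cell genes.

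Against the mean of the other 9 genes, Car8 had an r of 0.91 and Zic2 of 0.89, whereas Pcp2 had 0.60 and En2 0.54. Without the 2 mice farthest from each gene's median, Pcp2 came to 0.32 and En2 to 0.56. Within the genotypes, the r of Pcp2 was 0.32 in Tecpr2 ki/ki and 0.74 in wt/wt mice (n = 8 each). Beside them, the median r of Car8 with 13764 other genes of a mean value of at least 50 was 0.03, and 0.509% of these genes, against 7 of the other 9 members, had an r over 0.7 with it. For Zic2, 0.523% of the other genes and 5 of the 9 members had an r over 0.7. The same held for 5 members with Cbln3 (0.690% of the other genes) and 4 each with Cbln1 (0.509%) and Ppp1r17 (0.305%). It held for 3 members each with Zic1 (0.436%) and Neurod1 (0.378%) and 2 with Calb1 (0.785%). Pcp2 had 1 such member and En2 had 0 (0.298% of the other genes for each). The Purkinje and granule scores had an r of 0.73 (rho 0.61, n = 16) and, without the 2 mice farthest from the median Purkinje score, of 0.60. The mean of the 10 genes had an r of -0.14 (rho -0.23, n = 16) with the log2 number of reads on genes.

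**Figure D4:**
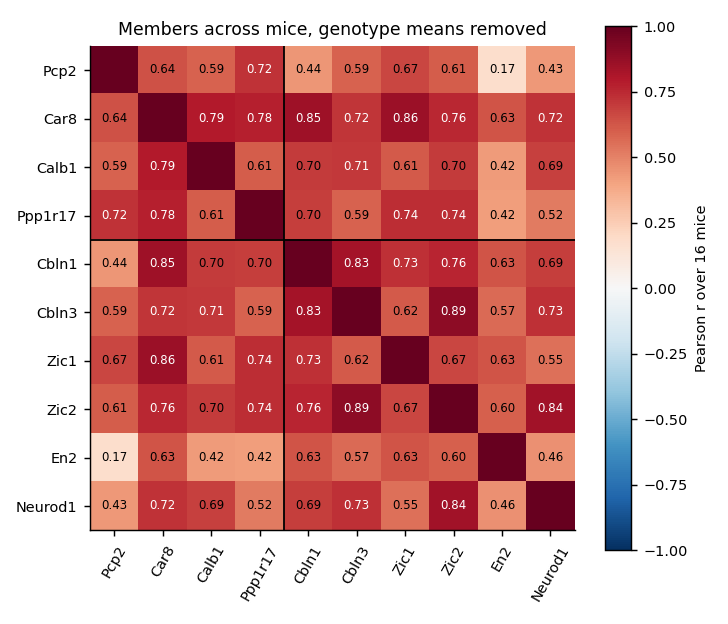
Pearson r between the 10 genes over 16 mice after removing genotype means, on a colour scale from -1 to 1, with black lines between Purkinje cell genes (first 4) and granule cell genes (last 6). All 45 values are above 0, from 0.17 to 0.89, and the rows of Pcp2 and En2 are the palest.

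Genes outside the 10 that varied most like the scores included further genes of these neurons. With the Purkinje score, the highest r over 16 mice among 13755 genes were those of Mindy1 (0.92), Itpr1 (0.90), Pvalb (0.89), Exph5 (0.87), Gabra6 (0.85), Atp2a3 (0.85), Plekha5 (0.84), Zic5 (0.82), Gprc5c (0.81) and Fat2 (0.81). Itpr1 is the inositol trisphosphate receptor, most abundant in Purkinje cells, and Pvalb is a calcium buffer of Purkinje cells and of interneurons elsewhere. With the granule score they were Kcna1 (0.89), Nrep (0.89), Fat2 (0.88), Snrk (0.86), Mmp24 (0.86), Rgs8 (0.85), Tfap2b (0.84), Exph5 (0.84), Wscd2 (0.84) and Gprc5c (0.82). Fat2, a protocadherin of granule cell parallel fibres, Exph5 and Gprc5c were in both sets, 3 of 10 in each.

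Other genes of the cerebellum were read from the same fit. Of 15 other Purkinje cell genes, 0 were called at an adjusted p under 0.1, with a median log2 difference of -0.00. Among the most abundant of them were Itpr1 (13126 ± 307 in Tecpr2 ki/ki, 13137 ± 511 in wt/wt mice, n = 8 each), Rgs8 (2790 ± 132 and 2804 ± 131) and Dner (2216 ± 80.6 and 2210 ± 52.9). Rgs8 regulates G protein signalling, and Dner is a Notch ligand of Purkinje dendrites. Of 15 other granule cell genes, 0 were called either, with a median of -0.01, and the most abundant were Fat2 (3282 ± 137 and 3241 ± 314), Reln (2712 ± 77.0 and 2738 ± 109.4), Etv1 (2281 ± 47.9 and 2256 ± 108) and Gabra6 (861 ± 58.9 and 881.4 ± 90.6). Reln is the secreted guidance protein reelin, and Gabra6 is the GABA-A receptor subunit that mature granule cells make.

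A list of 7 genes of the remaining cerebellar cells, such as Bergmann glia, unipolar brush cells and molecular layer interneurons, had 0 calls as well. Over these 37 other cerebellar genes 18 were higher and 19 lower. Of the 37, 3 had an unadjusted limma p under 0.05, where 6.08% of all tested genes did. These 3 fall outside the rule for naming genes and were chosen after their values were seen. They were Grid2ip, a postsynaptic scaffold of the parallel fibre synapse (log2 difference 0.11, limma adjusted p = 0.820), Gabrd, the extrasynaptic GABA-A receptor subunit of granule cells (-0.11, limma adjusted p = 0.587), and Gdf10, a growth factor made by Bergmann glia (0.20, limma adjusted p = 0.438).

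Markers of other regions and cell types were set beside the 10 genes in the same mice. The mean of the other granule cell genes had an r of 0.89 with the mean of the 10, the other Purkinje cell genes 0.81 and the remaining cerebellar cells 0.64. Lists for cortex, striatum, midbrain, meninges and microglia lay between -0.14 and 0.00, and those for thalamus, dentate gyrus, pan-neuronal genes, oligodendrocytes and astrocytes between 0.16 and 0.31. The choroid plexus list had an r of 0.48 and the caudal brainstem list of 0.38. These came to 0.02 and -0.06 without the 2 most extreme mice, whereas the cerebellar lists kept an r of 0.59 to 0.78. Only 5 of the 9 caudal brainstem genes passed the filter on low values, so the mean of that list rests partly on values near the floor. Whether the caudal brainstem varied with the cerebellar genes cannot be read from it.

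**Figure D5:**
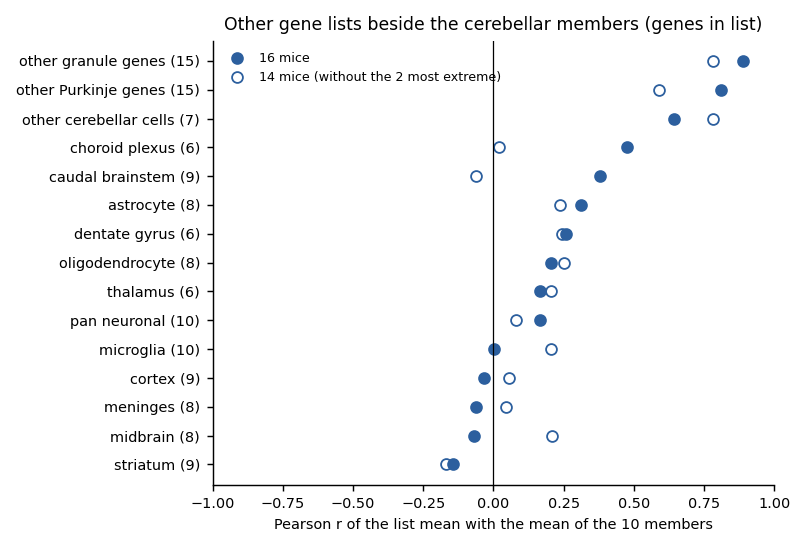
Pearson r (x axis) of the mean log2(value + 1) of 15 gene lists, the number of genes in brackets, with the mean of the 10 cerebellar genes over 16 mice (filled) and over 14 mice, without the 2 most extreme (open). The 3 cerebellar lists stand highest, at 0.64 to 0.89 over 16 mice.

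Outside the cerebellar lists, 9 marker genes were called at an adjusted p under 0.1, where 0.133% of all tested genes were. They were 5 of 10 microglial, 2 of 8 astrocyte and 2 of 9 striatal genes. These lists were chosen with earlier results of these data known, so the counts are no independent result. Of the called genes, the striatal gene Penk had lower values in Tecpr2 ki/ki mice, with a log2 difference of -0.15. The astrocyte genes Aqp4 and Slc1a2 had higher ones, by 0.14 and 0.06. The microglial genes C1qa, C1qb, C1qc, Ctss and Mpeg1 were higher by 0.29 to 0.42. The mean of the 10 microglial genes ran from 8.23 to 8.33 in Tecpr2 ki/ki and from 7.96 to 8.14 in wt/wt mice and had an r of 0.00 with the mean of the cerebellar genes. Summed values of the 9 striatal genes ran from 7565 to 7946 in Tecpr2 ki/ki and from 8091 to 8553 in wt/wt mice. The mean of these 9 genes, formed like that of the microglial genes and not from the sums, had an r of -0.14 with the mean of the cerebellar genes. How much of each brain's cerebellum entered a library is not given in the sources used here.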

How the data were processed

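The authors depleted ribosomal RNA from brain RNA of 16 mice and sequenced stranded libraries. Per the methods and labels, reads were trimmed with Trim Galore 0.6.10 and cutadapt 3.4, aligned to GRCm39 with STAR 2.7.10b, counted per gene with summarizeOverlaps, and tested with DESeq2 1.40.2. The unit of the values is a score: the authors deposited linear normalized numbers, rounded to whole ones. How they were normalized is not given in the sources used here, and raw counts cannot be restored from them exactly, so no count test was run. Genotypes were taken from the sample labels.

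A gene was tested if its sum was over 16 and if 4 or more mice of 1 genotype were above 5. The test was limma 3.58.1 (robust eBayes with a trend, R 4.3.3) on log2(value + 1), which understates changes of low genes. Tested on simulated data for the same comparison with 23251 genes, it recovered 200 of 200 genes changed by 0.5 (log2) and called 16 of 23051 unchanged ones. These counts are for that size of change and are not split by the level or spread of a gene. The largest log2 difference among the cerebellar genes, 0.27 for Pcp2, was smaller. How often changes of the cerebellar genes would be recovered was therefore not tested. Exact two-sided permutation tests over single genes and correlations used Python 3.11.15, numpy 2.4.6, scipy 1.17.1 and pandas 2.3.3, and figures used matplotlib 3.10.9. The reads behind a value follow from a factor per library (0.771 to 1.28) that the rounding of low values reveals. Intervals of limma give the uncertainty of the difference between genotype means, estimated from the spread between mice with 1 library each. Counting noise covers sampling of reads only.

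The 10 genes and all gene lists were chosen with earlier results of these data known. Named genes were the 10, Tecpr2, genes of other lists with an adjusted p under 0.1, up to 4 of the most abundant other Purkinje and granule cell genes, and the 10 genes with the highest Pearson r with each score among those with a mean value of at least 50. Some genes that this rule names are not reported here. Pet100, Grid2ip, Gabrd and Gdf10 were chosen with their values known. Exon lengths and overlaps are from GENCODE for GRCm38. Alternatives were another pseudocount (0.1), no filter, a replicate block, no robust step, each mouse left out, and other forms of the scores. In the limma fits alone, 2 scalings were also tried.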

Additional observations from a re-analysis of the deposited data

Results flagged for a closer look

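Within groups of 8 mice, a mouse was set apart when its gap to the nearest other mouse took up more of the group's range than Dixon's 95% critical value allows. Over the 10 genes, both scores, their difference and the mean of the 10 genes, 28 groups were checked, of which chance sets apart about 1 in 20, and the same mouse was set apart in 2. Tecpr2 ki/ki mouse 2 was low in Car8 (value 1880, gap of 0.543 of the range) and in the mean log2(value + 1) of the 10 genes (9.28, gap of 0.616).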

How the results depend on the processing

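In all 22 alternative fits 0 of the 10 genes were called, and the lowest adjusted p of any of them was 0.575 (limma, without wt/wt mouse 2). With no filter on low values, 20 of 41926 genes were called in place of 31 of 23244. Leaving out each mouse gave 25 to 40 called genes. The number of the 10 genes with an exact permutation p under 0.05 was 0, and 0 to 1 with a mouse left out. That gene was Pcp2 without wt/wt mouse 2 (exact p = 0.0451) or mouse 8 (exact p = 0.0488). Its limma p was 0.05 or more in 3 of 16 such fits, namely when Tecpr2 ki/ki mouse 1, wt/wt mouse 5 or wt/wt mouse 6 was absent. With a mouse left out, the log2 difference kept its sign in Pcp2, Ppp1r17 and Neurod1, and changed sign in the others, which lay near 0: Car8 from -0.053 to 0.0041, Calb1 from -0.021 to 0.0089, Cbln1 from -0.028 to 0.037, Cbln3 from -0.031 to 0.031, Zic1 from -0.037 to 0.019, Zic2 from -0.0088 to 0.038 and En2 from -0.13 to 0.0030. Under another pseudocount, with each mouse left out and in other score forms, the score differences moved by less than 1 SD between mice. That SD (0.134 for the Purkinje score, 0.114 for the granule score and 0.094 for their difference) exceeded each difference. A difference could therefore change sign and stay under it. With values summed before log2, the Purkinje score difference went from 0.08 to -0.006 and the Purkinje minus granule difference from 0.08 to -0.01. Leaving out a mouse gave granule score differences from -0.03 to 0.03. The Purkinje score without Pcp2 was chosen after seeing the data. The median r among the 10 genes lay between 0.58 and 0.70 with a mouse left out (also chosen after seeing the data). No label says whether the replicate numbers pair the mice. Same-numbered mice had correlations from -0.04 to 0.15, and 3 of 8 matched best with their own number, which does not settle it. A replicate block gave 46 called genes in place of 31, and 0 of the 10. Depth limits Pcp2 most, where counting alone gives a coefficient of variation of 11.5%.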
